A study of Mus musculus with 14 samples.

Results

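Naive pluripotency in mouse embryonic stem cells (ESCs) is held by a small group of transcription factors, and 10 of them are described here: Nanog, Esrrb, Klf2, Klf4, Klf5, Tbx3, Zfp42, Tfcp2l1, Prdm14 and Nr0b1. They were chosen by name from the 41204 genes of the RNA-seq table, and all 10 were among the 15430 genes tested, those with a mean above 0.2 FPKM. FPKM is the number of fragments mapped to a gene, scaled for the length of its transcript and for the size of the library.

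Polyadenylated RNA came from ESCs of 2 genotypes, wild-type and Trincr1-/-, each grown in 2 media, giving 4 groups of 2 biological replicates, 8 samples in all. Trincr1 is a long noncoding RNA, listed as Gm2694, and the knockout removed its exons 2 to 4 with a pair of guide RNAs. All cells carried the C57BL/6(F) x 129/sv(M) background, were of day 3.5 origin and grew without serum on gelatin. The 2i + LIF medium held the MEK inhibitor PD0325901 at 1 μM, the GSK3 inhibitor CHIR99021 at 3 μM and leukemia inhibitory factor (LIF) at 1000 units per ml. Cells for PD + LIF spent their first 24 h in the full medium and the next 4 days without CHIR99021, so that the MEK inhibitor and LIF remained in every group. The labels name no clone for the Trincr1-/- samples, so a difference between genotypes may also be one between cell lines.

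These factors form a network that maintains itself and that 3 inputs sustain. LIF activates STAT3, which drives Klf4 and Tfcp2l1, while inhibition of GSK3 relieves repression by TCF7L1 (also called TCF3) of genes that include Esrrb, Klf2, Nanog and Tfcp2l1, and inhibition of MEK keeps FGF/ERK signals from dissolving the network. Pou5f1 and Sox2 are shared with later, primed pluripotent cells, whereas the factors described here are lost or fall as cells leave the naive state.

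Promoters of the 4 members that were lower in Trincr1-/- ESCs in PD + LIF (Tfcp2l1, Esrrb, Nanog and Klf2) and of Zfp42 are printed. They show which of the motifs searched below each holds or lacks as an exact match. Each run gives the 250 bases before a start annotated in RefSeq (GRCm38.p6), 5′ to 3′ on the strand of the gene, with motif matches in capitals. The run of Tfcp2l1 extends past chr1:118627923, where its RefSeq gene position begins, so the start used for it here is a later one. RefSeq windows were found for 7 of 10 members, and Klf5, Tbx3 and Prdm14 had none in the table used here. Nanog and Esrrb have 2 windows each, of which the first is printed. The positions are chr1:118627695-118627944 (plus strand) for Tfcp2l1, chr12:86360867-86361116 (plus strand) for Esrrb, chr6:122707239-122707488 (plus strand) for Nanog, chr8:72318812-72319061 (plus strand) for Klf2 and chr8:43307010-43307259 (minus strand) for Zfp42.
Tfcp2l1: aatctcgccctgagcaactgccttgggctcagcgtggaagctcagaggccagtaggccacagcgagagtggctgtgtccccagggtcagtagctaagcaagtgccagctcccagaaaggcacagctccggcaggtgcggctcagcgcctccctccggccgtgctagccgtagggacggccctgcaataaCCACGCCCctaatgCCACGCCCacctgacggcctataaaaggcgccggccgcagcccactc
Esrrb: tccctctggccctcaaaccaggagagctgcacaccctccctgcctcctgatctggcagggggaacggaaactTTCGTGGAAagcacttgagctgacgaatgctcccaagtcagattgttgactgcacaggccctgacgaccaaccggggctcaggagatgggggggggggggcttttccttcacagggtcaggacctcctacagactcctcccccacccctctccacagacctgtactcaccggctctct
Nanog: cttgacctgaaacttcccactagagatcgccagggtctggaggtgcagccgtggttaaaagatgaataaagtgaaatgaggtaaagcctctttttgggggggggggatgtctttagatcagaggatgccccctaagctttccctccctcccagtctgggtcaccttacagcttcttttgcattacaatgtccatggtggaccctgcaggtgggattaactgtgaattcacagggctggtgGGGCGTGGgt
Klf2: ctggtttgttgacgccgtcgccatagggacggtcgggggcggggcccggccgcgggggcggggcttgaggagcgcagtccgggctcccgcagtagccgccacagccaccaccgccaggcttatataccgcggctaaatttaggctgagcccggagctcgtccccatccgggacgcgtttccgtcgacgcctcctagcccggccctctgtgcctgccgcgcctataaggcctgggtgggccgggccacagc
Zfp42: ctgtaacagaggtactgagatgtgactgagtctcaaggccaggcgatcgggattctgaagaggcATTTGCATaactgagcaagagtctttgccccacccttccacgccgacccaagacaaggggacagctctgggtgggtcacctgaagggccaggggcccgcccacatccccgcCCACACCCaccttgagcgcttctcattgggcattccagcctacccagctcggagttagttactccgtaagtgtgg

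Motifs were searched on both strands in the window from 250 bases before to 50 bases after each start, counted from the start. The KLF motif GGGNGTGG was present in 3 of the 7 members with a window (Tfcp2l1, Nanog and Zfp42), against 17.6% of all 32851 windows. Tfcp2l1 held it at −61 to −54 and at −47 to −40, Nanog at −10 to −3 and, past the printed stretch, at 25 to 32 (the same 2 sites fall in its second window), and Zfp42 at −75 to −68. The octamer ATGCAAAT, bound by OCT4, was present in Zfp42 at −186 to −179 and in 1.74% of all windows. The STAT motif TTCNNNGAA was present in Esrrb at −178 to −170 and in 8.30% of all windows. No member's window held the TCF/LEF motif ATCAAAG (3.73% of all windows), the estrogen-related receptor motif TCAAGGTCA (0.423%) or its core AAGGTCA (4.72%), or the ETS motif CCGGAAG (8.86%). A match to such letters is a description of the sequence, not evidence of binding. Only exact matches were searched, so the lack of a match is not evidence that a binding site is absent.

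Depth, estimated from the steps between low values, was 10.3 to 14.0 M fragments per sample. At that depth the lowest value of a member rested on an estimated 154 fragments for Prdm14, 168 for Nr0b1, 267 for Tbx3 and 782 to 4713 for the other members. The 2 samples of a group differed by at most 1.10-fold for any member in wild-type ESCs in 2i + LIF (Klf2), 1.15-fold in Trincr1-/- ESCs in 2i + LIF (Klf2), 1.13-fold in wild-type ESCs in PD + LIF (Nanog) and 1.27-fold in Trincr1-/- ESCs in PD + LIF (Klf4). Gm2694 was listed at 5.70 and 9.45 FPKM in wild-type and 0.0754 and 0 FPKM in Trincr1-/- samples in 2i + LIF, and at 6.18 and 6.56 against 1.38 and 0.746 FPKM in PD + LIF, lower in every Trincr1-/- sample. Over 6 ESC markers the summed level was 844 to 1276 FPKM in the 8 samples. Fibroblast (feeder) markers summed to 0.556 to 6.40 FPKM, with Dcn at 0 in 7 of 8 samples. Of these markers, Thy1 and Col1a1 were higher in PD + LIF than in 2i + LIF in both genotypes, with Thy1 at 2.41 to 3.75 FPKM in PD + LIF.

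The members spanned a wide range of levels. In wild-type ESCs in 2i + LIF, Nanog stood highest at 341 ± 1.9 FPKM (mean ± SD, n = 2 here and below), followed by Zfp42 at 248 ± 5.0, Esrrb at 165 ± 2.0, Klf2 at 109 ± 7.3 and Tfcp2l1 at 102 ± 2.2 FPKM. Klf4 at 63.6 ± 4.2, Klf5 at 61.3 ± 0.26, Nr0b1 at 42.1 ± 0.53, Tbx3 at 34.2 ± 0.71 and Prdm14 at 15.6 ± 0.27 FPKM followed. Klf2 and Tfcp2l1, neighbours in this order, differed by less than the SD of Klf2, and the samples of Klf4 and Klf5 overlapped, while the other neighbours were apart.

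**Figure D1:**
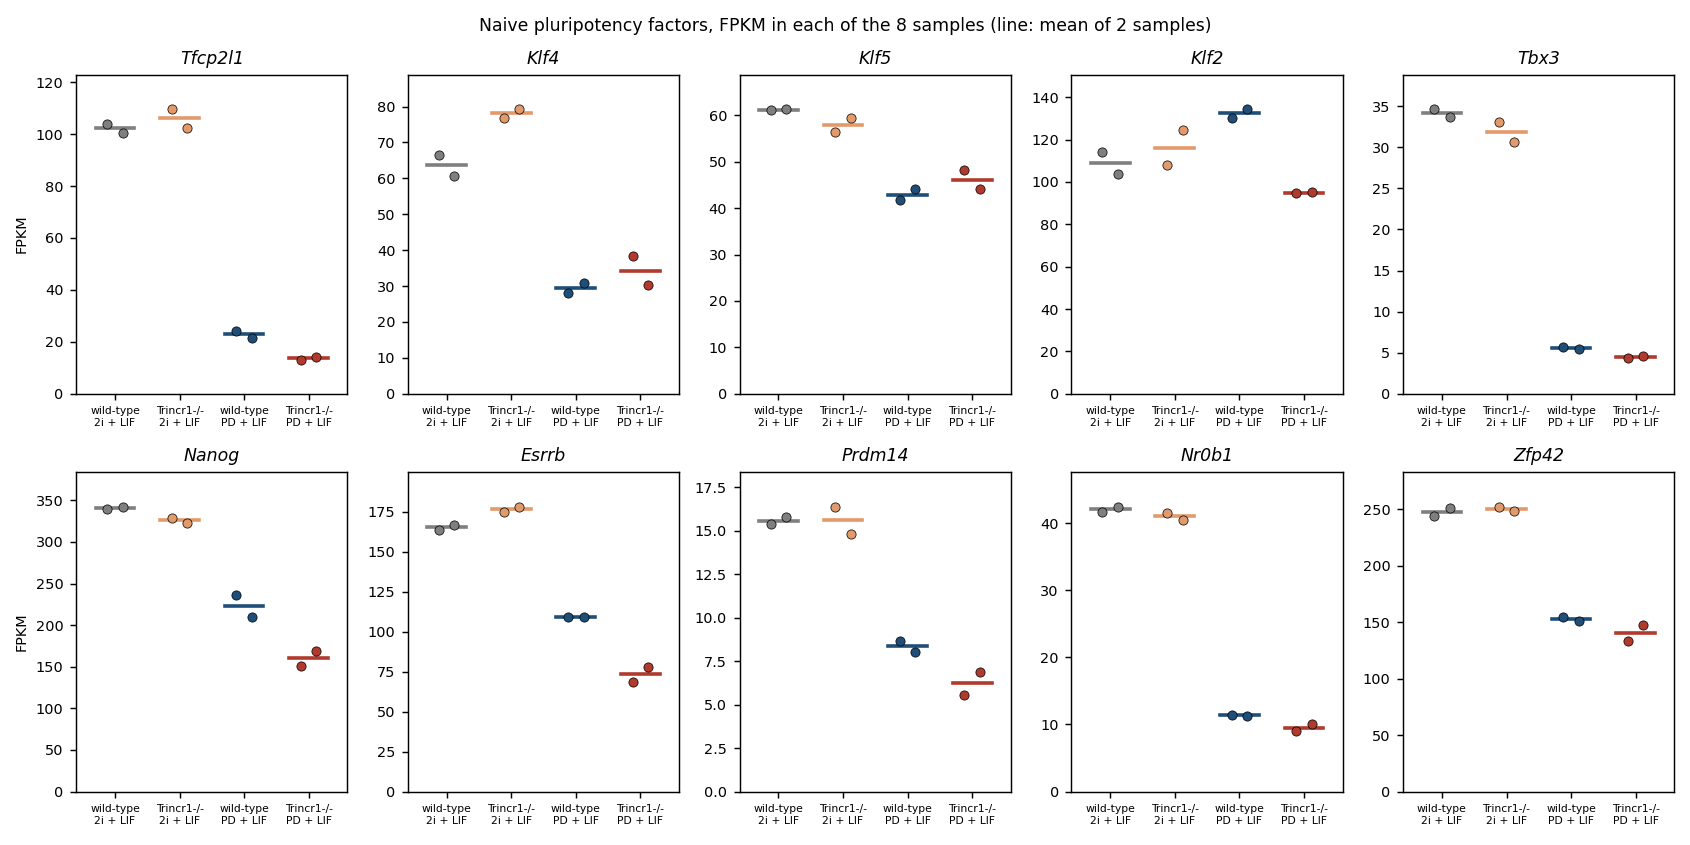
FPKM of each factor (y axes, from 0) in the 4 groups (x axis), with 1 point per sample and a line at the mean of 2 samples. In all but Klf2, both PD + LIF groups lie below both 2i + LIF groups, and in all but Klf4 and Klf5 the Trincr1-/- samples in PD + LIF lie lowest.

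Members were compared between groups on log2(FPKM + 1) with limma over all 15430 genes, and a gene was called at a Benjamini-Hochberg adjusted p under 0.05 over all genes. In 2i + LIF, 0 of 10 members were called between Trincr1-/- and wild-type ESCs, where 1.21% of all genes were called (0.35% higher and 0.855% lower). An unadjusted limma p under 0.05 was found for 1 of 10 members, Klf4, and for 2253 of the 15430 genes. In PD + LIF, 4 of 10 members were called lower in Trincr1-/- ESCs and 0 higher, where 5.77% of all genes were lower and 6.29% higher. There, an unadjusted limma p under 0.05 was found for 8 of 10 members and for 4390 of the 15430 genes. The median log2 difference of the members was 0.01 in 2i + LIF and −0.31 in PD + LIF, against 0.00 and 0.01 over all genes.

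The medium moved every member in both genotypes. From 2i + LIF to PD + LIF in wild-type ESCs, 9 of 10 members fell and Klf2 rose, where 21.3% of all genes fell and 30.9% rose. In Trincr1-/- ESCs all 10 fell, where 20.3% of all genes fell and 29.6% rose. Of all genes called in wild-type ESCs, 4765 rose and 3283 fell, and after quantile normalization 3803 rose and 3946 fell, with the median of all genes moving from 0.08 to −0.02. The corresponding counts in Trincr1-/- ESCs were 4572 and 3136, and 3578 and 3838 after quantile normalization, with the median moving from 0.07 to −0.03. The median log2 difference of the members between media was −0.76 in wild-type and −1.19 in Trincr1-/- ESCs. The difference between those medium effects, the genotype by medium interaction, was called for Esrrb and Tfcp2l1, both lower, and for no member higher, where 0.817% of all genes were lower and 0.992% higher. For Klf4, Klf5, Tbx3, Nr0b1 and Zfp42 the interaction lay between −0.19 and 0.18 on the log2 scale (adjusted p of 0.310 to 0.799). These were bulk samples, so fewer cells that express a factor and less RNA of it per cell cannot be told apart.

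**Figure D2:**
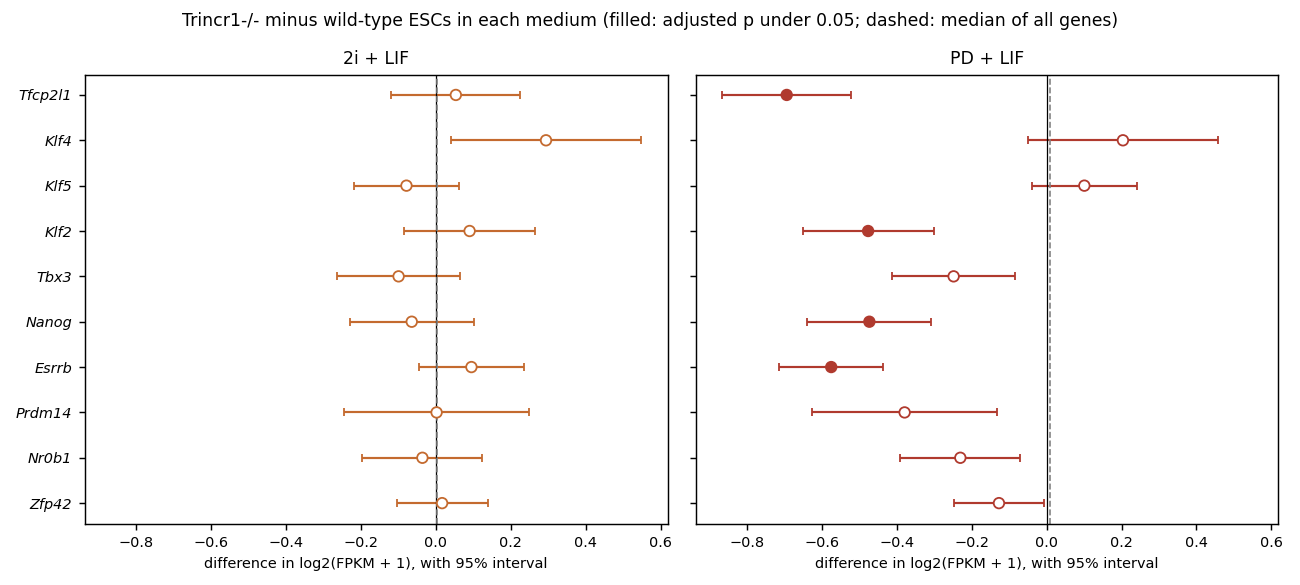
Difference between Trincr1-/- and wild-type ESCs in log2(FPKM + 1) for each factor, with its 95% interval, in 2i + LIF (left) and PD + LIF (right). No filled point, which marks an adjusted p under 0.05, stands at left, where the estimates run from −0.10 to 0.29, and Tfcp2l1, Klf2, Nanog and Esrrb are filled at right, all below 0.

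The members follow by role, with gene positions from RefSeq (GRCm38.p6). Tfcp2l1 (chr1:118627923-118685168), a STAT3 target that on its own can stand in for part of the LIF signal, showed the largest difference between genotypes among the members. In 2i + LIF its level was 104 and 101 FPKM in wild-type samples and 109.8 and 102 FPKM in Trincr1-/- samples, which overlapped. PD + LIF brought it to 24.2 and 21.5 FPKM in wild-type samples and to 13.1 and 14.3 FPKM in Trincr1-/- samples, 4 values that kept apart by genotype and were all far under those in 2i + LIF. The mean fell to 22.4% of its 2i + LIF level in wild-type ESCs and to 12.9% in Trincr1-/- ESCs. Between genotypes in PD + LIF the log2 difference was −0.69 (SE 0.07, limma adjusted p = 0.00363), and the call held when any 1 sample was left out, while with only the 4 PD + LIF samples in the fit the adjusted p was 0.0508. The interaction was −0.75 (SE 0.10, adjusted p = 0.0277), with an adjusted p of 0.0550 to 0.112 when any 1 of the 8 samples was left out. Its promoter carries the pair of KLF motifs shown above.

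Klf4 (chr4:55527137-55532475), a reprogramming factor that STAT3 drives in ESCs, went the other way in its point estimates. Its level in 2i + LIF was 66.5 and 60.6 FPKM in wild-type samples and 76.8 and 79.4 FPKM in Trincr1-/- samples. The groups were apart, and the log2 difference was 0.29 (95% interval 0.04 to 0.55, adjusted p = 0.272). In PD + LIF it was 28.1 and 30.8 FPKM in wild-type samples and 38.3 and 30.3 FPKM in Trincr1-/- samples. These overlapped, the replicates of Trincr1-/- ESCs differed by 1.27-fold, and the log2 difference was 0.20 (95% interval −0.05 to 0.46, adjusted p = 0.266). With the medium Klf4 fell by 1.08 on the log2 scale in wild-type ESCs and fell by 1.18 in Trincr1-/- ESCs (adjusted p = 0.000191 and 0.000127), to 46.3% and 43.9% of the 2i + LIF mean.

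Klf5 (chr14:99298691-99313412), a related factor that acts in the inner cell mass and the trophoblast, changed least with the medium among the members that fell in wild-type ESCs. It was listed at 61.1 and 61.5 FPKM in wild-type and 56.4 and 59.5 FPKM in Trincr1-/- samples in 2i + LIF. Wild-type samples in PD + LIF had 41.7 and 44.2 FPKM, and Trincr1-/- samples had 48.2 and 44.1 FPKM. The PD + LIF ranges overlapped, and the difference between genotypes in PD + LIF was 0.10 on the log2 scale (95% interval −0.04 to 0.24, adjusted p = 0.319). The PD + LIF mean was 70.0% of that in 2i + LIF in wild-type ESCs and 79.5% in Trincr1-/- ESCs, with log2 differences of −0.50 and −0.33 (adjusted p = 0.000421 and 0.00341). Klf4 and Klf5 were the only members whose mean was higher in Trincr1-/- than in wild-type ESCs in PD + LIF, and neither difference was called.

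Klf2 (chr8:72319062-72321654), a KLF factor whose protein active ERK marks for degradation, was the only member that the medium moved in opposite directions in the 2 genotypes. In 2i + LIF it was listed at 114 and 104 FPKM in wild-type and at 108 and 125 FPKM in Trincr1-/- samples, overlapping ranges. In PD + LIF the wild-type samples stood at 130.4 and 135 FPKM, above every 2i + LIF sample, and the Trincr1-/- samples at 94.7 and 95.2 FPKM, under every other sample. Its mean in PD + LIF was 122% of that in 2i + LIF in wild-type ESCs (log2 difference 0.28, SE 0.07, adjusted p = 0.0157) and 81.7% in Trincr1-/- ESCs (−0.29, SE 0.07, adjusted p = 0.0155). Each of these calls rests on its samples, with an adjusted p of 0.0989, 0.0534 and 0.0843 for the rise without wild-type replicate 2 in 2i + LIF or either wild-type sample in PD + LIF. For the fall it was 0.0727, 0.0710 and 0.0666 without Trincr1-/- replicate 2 in 2i + LIF or either Trincr1-/- sample in PD + LIF, and 0.0929 after quantile normalization.

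Between genotypes in PD + LIF, the Klf2 mean of Trincr1-/- ESCs was 71.7% of that of wild-type ESCs, a log2 difference of −0.48 (SE 0.07, adjusted p = 0.0102). The adjusted p rose to 0.0610 and 0.0652 without wild-type replicates 1 and 2 in PD + LIF, and to 0.0777 and 0.0570 without Trincr1-/- replicates 1 and 2. The interaction was −0.57 (SE 0.105, adjusted p = 0.0505). That value lies at the threshold, and it was 0.0375 among genes with a mean of at least 1 FPKM, 0.0408 after quantile normalization and 0.0498 after size factors. Under the other alternatives it was 0.0527 to 0.165, with 0.0624 to 0.165 when 1 sample was left out.

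Nanog (chr6:122707489-122714633), the homeobox factor whose level sets how firmly ESCs hold the naive state, was among the 4 members called lower in Trincr1-/- ESCs in PD + LIF. In 2i + LIF the 2 genotypes were close, with 339.9 and 343 FPKM in wild-type samples and 329 and 323 FPKM in Trincr1-/- samples (log2 difference −0.06, 95% interval −0.23 to 0.10, adjusted p = 0.759). In PD + LIF, wild-type samples had 236 and 209 FPKM and Trincr1-/- samples 151 and 169 FPKM. The groups were apart, with the Trincr1-/- mean at 71.9% of wild-type and a log2 difference of −0.47 (SE 0.07, adjusted p = 0.00876). Without wild-type replicate 1 or without Trincr1-/- replicate 1 in PD + LIF the adjusted p was 0.0547 and 0.0641, and with only the 4 PD + LIF samples in the fit it was 0.0719. Its mean fell to 65.3% of the 2i + LIF level in wild-type ESCs and to 49.1% in Trincr1-/- ESCs (log2 differences −0.62 and −1.03, adjusted p = 0.000353 and 3.44e-05). The interaction of −0.41 was not called (adjusted p = 0.0907). The pseudogene Nanog-ps1, which could share reads with Nanog, was listed at 2.43 FPKM in Trincr1-/- replicate 2 in 2i + LIF and at 0 in the other samples.

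Esrrb (chr12:86361117-86521628), an orphan nuclear receptor that TCF7L1 represses and that can act downstream of GSK3 inhibition, had the interaction with the lowest adjusted p among the members. It stood at 164 and 167 FPKM in wild-type and 175 and 178 FPKM in Trincr1-/- samples in 2i + LIF. In PD + LIF both wild-type samples were at 109 FPKM, while the Trincr1-/- samples were at 68.5 and 77.8 FPKM. Trincr1-/- samples were thus the higher ones in 2i + LIF and the lower ones in PD + LIF, with log2 differences of 0.10 (SE 0.06, adjusted p = 0.527) and −0.57 (SE 0.06, adjusted p = 0.00334). The latter call held when any 1 sample was left out, at an adjusted p of at most 0.0498 over all alternatives. The mean fell to 66.2% of the 2i + LIF level in wild-type ESCs and to 41.5% in Trincr1-/- ESCs, and the interaction was −0.67 (SE 0.08, adjusted p = 0.0267). That adjusted p was 0.0623 to 0.0951 when any 1 of 7 samples was left out, all but Trincr1-/- replicate 2 in PD + LIF.

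Tbx3 (chr5:119670534-119684724), a T-box factor that sustains self-renewal and also acts in early endoderm, fell most with the medium in wild-type ESCs. Its level was 34.7 and 33.7 FPKM in wild-type and 33.0 and 30.7 FPKM in Trincr1-/- samples in 2i + LIF, and 5.64 and 5.46 against 4.40 and 4.64 FPKM in PD + LIF. Every PD + LIF sample was far under every 2i + LIF sample, with 16.2% of the 2i + LIF mean left in wild-type ESCs (log2 difference −2.43, SE 0.07, adjusted p = 3.51e-06) and 14.2% in Trincr1-/- ESCs (−2.57, SE 0.07, adjusted p = 1.70e-06). In PD + LIF the genotypes were apart, with a log2 difference of −0.25 (95% interval −0.41 to −0.08) that was not called (adjusted p = 0.0630). The antisense transcript Tbx3os1, chosen after its values were seen, overlaps the start of Tbx3 and was listed at 1.33 and 1.45 FPKM in wild-type samples in 2i + LIF, 0.104 and 0 FPKM in Trincr1-/- samples, and 0 in PD + LIF. Whether counting used the strand is not stated in the sources used here.

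Nr0b1 (chrX:86191775-86195947), also called Dax1, a nuclear receptor that binds OCT4 and restrains it, showed a pattern close to that of Tbx3. In 2i + LIF its level was 41.8 and 42.5 FPKM in wild-type and 41.6 and 40.5 FPKM in Trincr1-/- samples. In PD + LIF it was 11.5 and 11.2 FPKM in wild-type and 8.97 and 10.1 FPKM in Trincr1-/- samples. The Trincr1-/- samples were the lower ones in both media, by a log2 difference of −0.04 (95% interval −0.20 to 0.12, adjusted p = 0.884) in 2i + LIF and of −0.23 (95% interval −0.39 to −0.07, adjusted p = 0.0710) in PD + LIF. The medium left 27.0% of its level in wild-type and 23.2% in Trincr1-/- ESCs.

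Prdm14 (chr1:13113428-13127163), which represses FGF signaling components and DNA methyltransferase genes in ESCs, was the least abundant member. It stood at 15.4 and 15.8 FPKM in wild-type and 16.4 and 14.8 FPKM in Trincr1-/- samples in 2i + LIF, overlapping ranges. In PD + LIF wild-type samples had 8.66 and 8.04 FPKM and Trincr1-/- samples 5.57 and 6.86 FPKM, apart by genotype but 1.23-fold from each other among the latter. The log2 difference in PD + LIF was −0.38 (95% interval −0.63 to −0.13, adjusted p = 0.0589), and among genes with a mean of at least 1 FPKM its adjusted p was 0.0477. Under the other alternatives the adjusted p was 0.0519 to 0.236, and with 1 sample left out the difference ran from −0.51 to −0.25. The medium left 53.7% of its level in wild-type and 39.8% in Trincr1-/- ESCs, and the interaction was −0.38 (adjusted p = 0.224).

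Zfp42 (chr8:43295067-43307009), also called Rex1, a zinc finger factor widely used to report the naive state, changed little between genotypes in either medium. Its level was 244 and 251 FPKM in wild-type and 252 and 248 FPKM in Trincr1-/- samples in 2i + LIF. In PD + LIF it was 155 and 151 FPKM in wild-type and 133 and 147 FPKM in Trincr1-/- samples, apart but next to each other. The log2 difference was 0.02 (95% interval −0.10 to 0.14, adjusted p = 0.943) in 2i + LIF and −0.13 (95% interval −0.25 to −0.01, adjusted p = 0.159) in PD + LIF. With the medium its mean fell to 61.7% in wild-type ESCs and to 55.9% in Trincr1-/- ESCs.

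**Figure D3:**
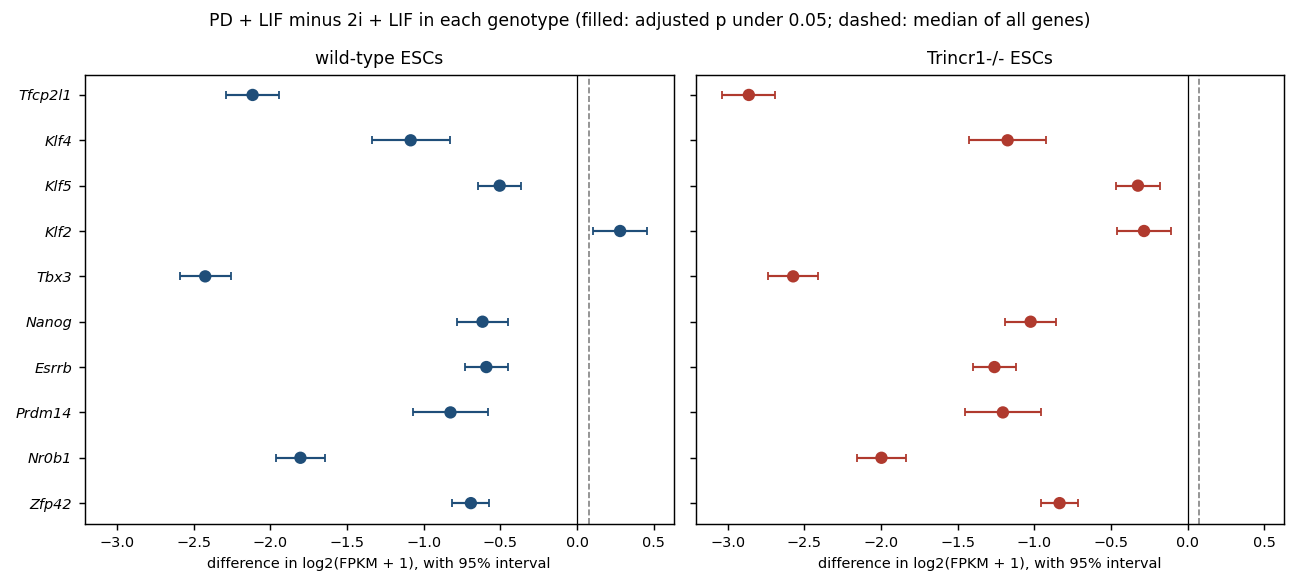
Difference between PD + LIF and 2i + LIF in log2(FPKM + 1) for each factor, with its 95% interval, in wild-type (left) and Trincr1-/- ESCs (right). Every point is filled, marking an adjusted p under 0.05, and Klf2 in wild-type ESCs is the only one above 0, at 0.28.

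The samples of the 2 genotypes did not overlap for 6 of 10 members in 2i + LIF, 2 higher and 4 lower in Trincr1-/- ESCs, where 44.4% of all genes did not overlap. In PD + LIF this held for 8 of 10 members, all 8 lower in Trincr1-/- ESCs, where 57.7% of all genes did not overlap. Zfp42, Prdm14, Tfcp2l1 and Klf2 were the members whose genotypes overlapped in 2i + LIF, and Klf4 and Klf5 those in PD + LIF. The 10 estimates in 2i + LIF had 95% intervals that stayed between −0.26 and 0.55 on the log2 scale.

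Genes of the same network and of its inputs give the setting of these differences. Of 15 other naive-state genes tested, 8 were lower and 0 higher in Trincr1-/- ESCs in PD + LIF, with a median log2 difference of −0.35. The largest falls were those of Tcl1 (−1.04), Dppa3 (−0.99), Dppa5a (−0.93) and Pecam1 (−0.62). Tcl1, a coactivator of AKT, stood at 48.1 and 37.7 FPKM in wild-type and at 18.3 and 22.4 FPKM in Trincr1-/- samples in PD + LIF. Dppa3 (Stella), a maternal factor that protects DNA methylation in the early embryo, rose with the medium in wild-type ESCs, from 44.1 and 34.3 to 185 and 165 FPKM. In Trincr1-/- ESCs it also rose, from 39.1 and 44.2 to 82.0 and 93.9 FPKM (log2 difference 1.06, adjusted p = 0.000481), whereas Klf2 fell there. In 2i + LIF 1 gene of the list was called between genotypes, Lefty1, an inhibitor of NODAL, at 39.4 and 31.7 FPKM in wild-type against 14.9 and 19.0 FPKM in Trincr1-/- samples. With the medium 3 of the 15 rose and 8 fell in wild-type ESCs, and 3 rose and 11 fell in Trincr1-/- ESCs, with Tdh, a threonine dehydrogenase of ESCs, at 359 and 371 FPKM in 2i + LIF and 81.0 FPKM in both PD + LIF samples of wild-type ESCs.

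Factors shared with primed cells were divided. Of 8 general pluripotency factors, 2 were higher (Lin28a by 0.61 and Sall4 by 0.39 on the log2 scale) and 2 lower (Sox2 by −0.29 and Pou5f1 by −0.20) in Trincr1-/- ESCs in PD + LIF, with a median of 0.12, and 0 were called in 2i + LIF. Pou5f1, which encodes OCT4, was at 413 and 420.4 FPKM in wild-type and at 373 and 354 FPKM in Trincr1-/- samples in PD + LIF. With the medium, 3 rose and 4 fell in wild-type ESCs and 2 rose and 3 fell in Trincr1-/- ESCs.

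Of the 3 lists of inputs, that for GSK3 and TCF had the highest median between genotypes in both media. The list mixes induced genes with inhibitors and a repressor, so its median does not measure the activity of the pathway. In PD + LIF, 4 of its 9 genes tested had higher and 1 had lower levels in Trincr1-/- ESCs, with a median log2 difference of 0.45. In 2i + LIF 0 were called, with a median of 0.25, and the median of its interaction was −0.11, with 2 genes called higher and 1 lower. The largest rises were those of Sp5 (1.94), Axin2 (1.47) and Nkd1 (0.98), all induced by WNT and β-catenin, and Tcf7, a TCF factor, was lower (−0.55). Axin2, a feedback inhibitor of the pathway, was at 23.3 and 23.2 FPKM in wild-type samples in 2i + LIF, fell to 3.12 and 2.60 FPKM in PD + LIF and stood at 8.51 and 11.0 FPKM in Trincr1-/- samples in PD + LIF. From 2i + LIF to PD + LIF, 4 genes of the list rose and 2 fell in wild-type ESCs, and 4 rose and 3 fell in Trincr1-/- ESCs. Sp5 and Axin2 fell in both genotypes, by log2 differences of −2.71 and −2.655 in wild-type and −1.14 and −1.56 in Trincr1-/- ESCs. Nkd1 rose in both, by 0.86 in wild-type and 1.83 in Trincr1-/- ESCs, so these WNT-induced genes did not move together with the medium. The remaining gene called higher in Trincr1-/- than in wild-type ESCs in PD + LIF, named after its values were seen, was Tcf7l1, the repressor introduced above. It was at 40.4 and 39.5 FPKM in wild-type and at 56.0 and 54.1 FPKM in Trincr1-/- samples, a log2 difference of 0.45 (SE 0.05, adjusted p = 0.00370). In 2i + LIF it was at 44.7 and 42.3 against 47.4 and 48.5 FPKM, and neither that difference (adjusted p = 0.264) nor the interaction of 0.32 (adjusted p = 0.0754) was called. Tfcp2l1, Esrrb, Klf2 and Nanog were lower in the same Trincr1-/- samples. Any link between their levels and those of the genes of this list was not tested.

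Of 8 genes of the LIF and STAT3 input, 2 were lower and 0 higher in Trincr1-/- ESCs in PD + LIF (Pim1 by −0.85 and Pim3 by −0.38, both kinases induced by STAT3), with a median of 0.04. None of these 8 genes was called between genotypes in 2i + LIF, and with the medium 3 rose and 4 fell in wild-type ESCs and 2 rose and 5 fell in Trincr1-/- ESCs. Of 11 genes of the MEK and ERK input, 2 were higher (Myc by 1.14 and Fgfr1 by 0.44) and 1 lower (Etv5 by −0.41, an ETS factor) in PD + LIF, with a median of 0.10, and 0 were called in 2i + LIF. With the medium 4 rose and 6 fell in wild-type ESCs, and 3 rose and 4 fell in Trincr1-/- ESCs. In wild-type ESCs the largest fall was that of Etv4, another ETS factor, from 46.4 and 50.4 to 0.965 and 0.940 FPKM. The largest rise there was that of Fgfr2, an FGF receptor, from 1.28 and 0.684 to 39.6 and 37.9 FPKM.

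**Figure D4:**
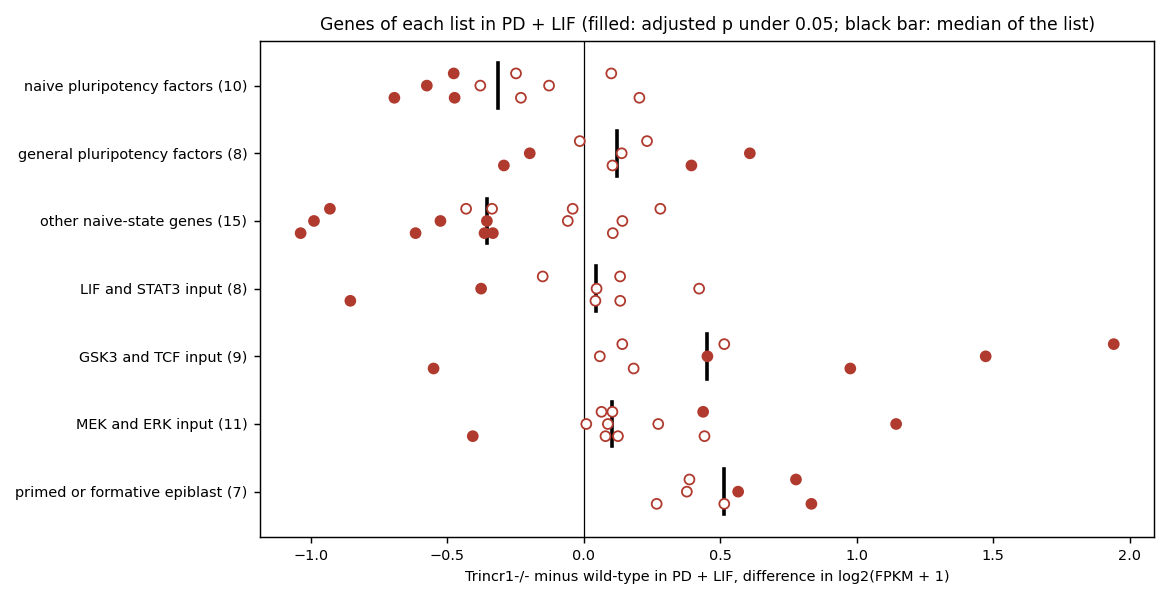
Difference between Trincr1-/- and wild-type ESCs in PD + LIF in log2(FPKM + 1) for each gene tested, by list, with the number tested in parentheses and a bar at the list's median. Filled points passed an adjusted p of 0.05, and the medians are −0.31 for the naive pluripotency factors, −0.35 for other naive-state genes and 0.45 for the GSK3 and TCF input.

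Markers of other cell types moved with the same groups. The 7 primed or formative epiblast markers summed to 67.4 to 69.5 FPKM in the 4 samples in 2i + LIF, 139 to 161 FPKM in wild-type samples in PD + LIF and 224 to 246 FPKM in Trincr1-/- samples in PD + LIF. All 7 rose with the medium in both genotypes, and 3 of 7 were higher in Trincr1-/- ESCs in PD + LIF (Dnmt3b by 0.83, Sox3 by 0.78 and Zic2 by 0.57), with a median of 0.51. Trophoblast markers summed to 119 to 120 FPKM in wild-type and 190 to 191 FPKM in Trincr1-/- samples in PD + LIF, mostly from Krt8, a keratin of simple epithelia, with 2 of 5 tested higher (Hand1 and Krt8), and in 2i + LIF Cdx2 was higher (log2 difference 1.19). Neural markers summed to 27.9 to 30.4 and 37.7 to 38.1 FPKM in those groups, with 1 of 3 tested higher (Sox1). Primitive endoderm markers summed to 4.67 to 5.55 and 7.08 to 7.75 FPKM with 1 of 4 higher (Foxa2), fibroblast markers to 4.15 to 4.59 and 5.56 to 6.40 FPKM with 1 of 3 higher (Col1a1), and mesoderm markers to 4.32 to 4.41 and 2.98 to 3.65 FPKM with 0 of 4 called. The 6 ESC markers summed to 927 to 961 and 844 to 879 FPKM, with 1 higher (Sall4) and 3 lower (Fgf4, Sox2 and Pou5f1). In 2i + LIF no other gene of these 7 marker lists was called between genotypes. The part of other cell types or states in the members' values was not tested.

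For each member the 3 genes with the most similar profile were taken by Pearson's r of log2(FPKM + 1) over the 8 samples, among 8528 genes with a mean of at least 5 FPKM. These 8 points are 4 groups of 2 and share media, so r is given as a description. Tfcp2l1 was closest to Nr5a2 (r = 0.999), a nuclear receptor that also acts in naive cells, at 23.5 and 23.8 FPKM in wild-type samples in 2i + LIF and 8.10 and 8.95 FPKM in Trincr1-/- samples in PD + LIF. The next in order for Tfcp2l1 were 2410137M14Rik and Ly75. Nanog was closest to Cnpy1 (0.996), Sh3gl2 and Cpt1a, and Esrrb to Atp5a1 (0.996), Alpl and Ass1. Klf2 had the least close partners, Man2b1 (0.959), Lima1 and Apoe, and Apoe was at 667 and 750.3 FPKM in wild-type and 363 and 375 FPKM in Trincr1-/- samples in PD + LIF. Klf4 was closest to Tsr2 (0.994), Mrpl17 and Mlec, Klf5 to Bysl (0.998), Commd2 and Naa10, Tbx3 to M6pr (0.998), Vegfc and Lhpp, and Zfp42 to Trap1a (0.997), Nlrp4f and Nid1. Prdm14 was closest to Cnpy1 (0.996), Gm13151 and Shmt1, and Nr0b1 to Trap1a (0.999), Vegfc and Taf15. Among the members themselves r was 0.999 between Tbx3 and Nr0b1 and 0.988 between Nanog and Esrrb, and between Klf2 and the others it ran from −0.14 (Klf5) to 0.39 (Esrrb).

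RNA bound to FLAG-tagged TRIM71, the protein that Trincr1 binds, was pulled down from ESCs that overexpressed the tagged protein in 2i + LIF, with 1 deposited value per transcript for the pulldown (IP) and 1 for the input. No replicates can be separated there, so the folds have no error and no test. Above a fold of enrichment of 3 stood 0 of 10 members, where 5.1% of the 9651 transcripts with an input above 2 FPKM did. The highest was Klf4, with an input of 43.0 FPKM, a scaled IP of 39.4 FPKM and a fold of 0.916. Esrrb and Nanog, the most abundant in the input at 237 and 230.0 FPKM, had folds of 0.257 and 0.193. Klf2 (0.333), Klf5 (0.323), Tfcp2l1 (0.296, listed there under an older symbol), Zfp42 (0.246) and Nr0b1 (0.0870) lay below 1 as well. Tbx3 and Prdm14 were listed at 0 in the IP with inputs of 27.7 and 12.5 FPKM, a range in which 39.7% of 2020 transcripts were listed at 0. A fold below 1 was common, as the median over the 9651 transcripts was 0.0571 and 46.4% of them were listed at 0. Of these transcripts, 17.25% had a higher fold than Klf4, 33.7% than Klf2 and 48.2% than Nr0b1, the lowest member above 0. The depth of the pulldown libraries is unknown.

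**Figure D5:**
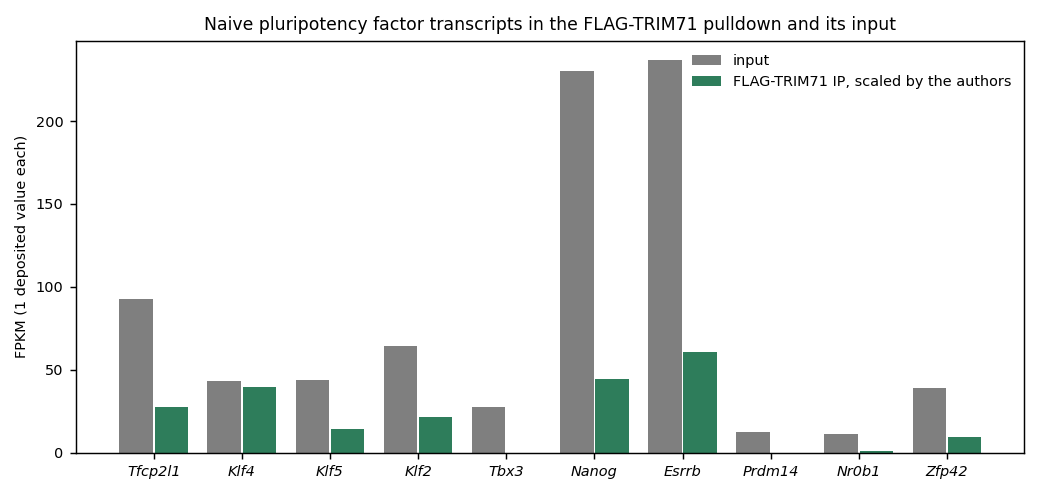
FPKM (y axis, from 0) of each factor's transcript in the input (grey) and in the FLAG-TRIM71 pulldown as scaled by the authors (green), 1 deposited value each. The pulldown bar lies under the input bar for every factor, closest for Klf4 at 39.4 against 43.0 FPKM.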

How the data were processed

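Poly(A) RNA-seq of 8 samples (4 groups of 2) was analysed. The authors aligned reads with STAR 2.5.0, quantified genes with Cufflinks 2.2.1 and deposited normalized FPKM per gene and sample, not counts. The methods name mm9, while the gene coordinates in the table are those of GRCm38, so positions and promoters were taken from RefSeq on GRCm38.p6. For the FLAG-TRIM71 pulldown the deposited table holds, per transcript, an FPKM of the IP and of the input, and the same pair as a scaled signal (IP multiplied by 2.25 by the authors). The fold of enrichment was computed here as scaled IP over scaled input, for the 14054 transcripts with a nonzero input. The labels list 2 replicates of each of 3 kinds of library, and the table does not separate the replicates of the IP or of the input. The authors' own column of folds was not used. The control IP of empty-vector cells has no column in that table, so it was not used here.

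The RNA-seq table held 41260 entries. Where an identifier had several entries (39 identifiers) only the most abundant was used, and 27 symbols listed as numbers were restored. FPKM sums were 497115 to 519651 per sample, so no scaling was added. Values were compared as log2(FPKM + 1) with limma 3.58.1 in R 4.3.3, with 4 groups in 1 model (4 residual degrees of freedom), a variance trend, two-sided tests and Benjamini-Hochberg adjustment over 15430 genes with a mean above 0.2 FPKM. A pseudocount of 1 shrinks the differences of low genes. Depth was read off the smallest FPKM steps of genes of 500 to 1500 bases, with a fragment length of 220 bases. It sets counting error only. P-values measure the spread between the 2 samples of a group, which are labelled biological replicates.

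On simulated data with 200 of 15430 genes changed by 1 on the log2 scale between genotypes in PD + LIF, limma called 183 with 10 false calls, and made 0 calls in the unchanged contrast. The changed genes were drawn from the more abundant ones, and the noise was normal, with an SD that followed the mean level. Members differed between genotypes in PD + LIF by only −0.69 to 0.20, so this recovery does not apply to them. Plots used matplotlib 3.10.9 and tables pandas 2.3.3 and numpy 2.4.6, all under Python 3.11.15.

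The members, the lists and the markers were chosen with earlier results of these data known. All members are named. Of each list at most 4 genes are named per comparison, those with the largest absolute log2 difference among genes past the threshold, plus Gm2694. Tcf7l1, Dcn, Tbx3os1 and Nanog-ps1 fall outside this rule and were chosen after their values were seen. Genes of similar profile are the 3 with the highest Pearson's r. Genes in several lists count under each. Alternatives covered the pseudocount (0.1 and 0.5), the low-value filter (none, or a mean of at least 1 FPKM), quantile and size-factor normalization, no variance trend, the samples fitted, a replicate block and, for the pulldown, the scaling, an added 1 FPKM and a fold above 2.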

Additional observations from a re-analysis of the deposited data

Results flagged for a closer look

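The effect of the medium differed between genotypes for Esrrb, with an interaction of −0.67 on the log2 scale (SE 0.08, limma adjusted p = 0.0267). That call was lost without the variance trend (0.0698) and without any 1 of 7 of the 8 samples (0.0623 to 0.0951). PD + LIF left 66.2% of its 2i + LIF mean in wild-type and 41.5% in Trincr1-/- ESCs. The same test gave −0.75 for Tfcp2l1 (SE 0.10, adjusted p = 0.0277), with 22.4% left in wild-type and 12.9% in Trincr1-/- ESCs. That call was lost without the variance trend (0.0697), without a filter (0.0542), with a replicate block (0.0592) and without any 1 of the 8 samples (0.0550 to 0.112).

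Klf2 was picked out because both wild-type samples rose with the medium and both Trincr1-/- samples fell. Its interaction was −0.57 (SE 0.105, adjusted p = 0.0505), which did not pass the threshold. For all 3 genes the explanation was not tested.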

How the results depend on the processing

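Over 17 alternatives, the 50 log2 differences of single members gave 840 values, of which 795 kept direction and side of the threshold, 34 lost the call, 4 gained it and 7 changed sign. In 37 of 50 differences nothing changed. Members called in PD + LIF between genotypes numbered 4, with 2 when only the groups compared were fitted and 2 to 4 when 1 sample was left out. The interaction called 2 members, with 1 without a filter, 0 without the variance trend (limma, adjusted p of 0.0698 for Esrrb and 0.0697 for Tfcp2l1), and 0 to 1 when 1 sample was left out. With a replicate block it called 1 (Esrrb, with Tfcp2l1 at an adjusted p of 0.0592), and the block changed no other call of a member. Same-numbered replicates showed no shared deviation across genes, as replicate differences correlated at −0.0539 to 0.00634. Such values cannot show whether same-numbered samples were handled together. Sign changes were all near 0 and not called. For Prdm14 in 2i + LIF the difference of 0.0021 became −0.0025 after quantile normalization and −0.00072 after size factors, and −0.0659 to 0.0700 with 1 sample left out. Leaving out 1 sample also gave −0.0123 to 0.193 for Klf2 and −0.0036 to 0.0373 for Zfp42 in 2i + LIF, and −0.255 to 0.0742 for the Klf4 interaction. A group left with 1 sample is assumed to vary like the others. The cause of these changes was not tested, beyond fewer samples. Over all genes, calls between genotypes in PD + LIF numbered 970 higher and 891 lower, and 140 and 176 when only those groups were fitted, and with 1 sample left out 142 to 769 and 193 to 750. In 2i + LIF they were 54 and 132 with limma, 41 and 81 without a filter, 35 and 76 with the block, 6 to 32 and 31 to 81 with 1 sample left out, and 0 and 0 with only those groups (2106 genes at an unadjusted p under 0.05). Interaction calls were 153 and 126, 80 and 58 without a filter, 54 and 34 without the trend, 17 and 22 with the block and 1 to 23 and 2 to 20 with 1 sample left out. With 2 samples per group, small differences of single members cannot be resolved. No member passed a fold of 3 in the pulldown under any of its 3 alternatives.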
